A study of Mus musculus with 12 samples.

Results

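Polysome association is the amount of an mRNA found on heavy polysomes, the fast-sedimenting part of a sucrose gradient that holds transcripts carrying many ribosomes, relative to its amount in total RNA. The measurement described here is how that ratio differed in CD4+ T cells between mice given the compound 4EGI-1 and mice given vehicle. It was taken gene by gene as a difference of differences on the log2 scale: heavy minus input in the 4E libraries, less heavy minus input in the OA libraries. A positive value means a higher heavy-to-input ratio in 4E. Of 26485 gene rows, 25994 lay outside small noncoding RNA classes, and the 7400 of those with at least 10 counts in at least 3 of the 12 libraries were tested.

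The 12 libraries form 4 groups of 3: 4E heavy, 4E input, OA heavy and OA input. All mice were C57BL/6 and were immunised with AOV alum, then dosed by mouth each day for 7 days with 4EGI-1 at 25 mg/kg or with vehicle alone, and T cells were sorted on CD4 and CD45. The labels do not spell out 4E and OA, which were read as the 4EGI-1 and the vehicle arm. They give no age, and nothing in them says whether a library came from 1 animal or a pool, or whether the replicates were separate mice. The p-values therefore measure no more than how these libraries varied, which could be technical variation.

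Most mRNAs carry a 5′ cap that is bound by eIF4E, which recruits the scaffold eIF4G and the helicase eIF4A; together they form eIF4F, the complex that brings the small ribosomal subunit to the mRNA. 4EGI-1 binds eIF4E and hinders its contact with eIF4G. mRNAs differ in how much they need eIF4F: many growth and survival genes are known as strongly eIF4E-dependent, and mRNAs that start with a run of pyrimidines, the 5′ TOP mRNAs of ribosomal proteins and translation factors, are controlled through mTOR and cap-binding proteins. The comparison asks which mRNAs moved onto or off heavy polysomes by more or less than the others did. Because each library is scaled to its own total, a change of ribosome loading shared by all mRNAs cannot be seen.

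Read depth differed between the groups. Counts outside small noncoding RNA were 574555 to 839449 in 4E heavy, 234469 to 250238 in 4E input, 775599 to 1846780 in OA heavy and 305469 to 1258673 in OA input, so that 3 counts correspond to 3.60 to 5.20 counts-per-million (CPM) in 4E heavy, 12.6 to 13.4 in 4E input, 1.51 to 3.75 in OA heavy and 2.31 to 10 in OA input. These floors cover counting error only. OA input replicate 1 stood apart: its gene levels correlated at 0.971 (Spearman, across genes) with OA heavy replicate 1 and at 0.840 and 0.865 with the other OA input libraries, and small noncoding RNA took 33.6% of its gene counts, against 74.9% and 71% in OA input replicates 2 and 3. The share of small noncoding RNA in heavy minus that in input was -64.5, -63.8 and -59.5 percentage points in 4E and -30.4, -65.2 and -58.9 in OA by replicate number, and no difference between the arms was detected (exact two-sided permutation p = 0.6, where 3 against 3 allows no p under 0.1). T cell genes were present, with 8791 counts of PTPRC (CD45), 5355 of LCK, 935 of CD3E, 257 of CD3G and 100 of CD4 over all libraries, whereas CD3D had 0. Summed markers of stromal and endothelial cells (22 genes, 2 at 0 throughout) were 72 to 140.3 CPM in 4E heavy, 108 to 138 in 4E input, 204 to 1081 in OA heavy and 232 to 1226 in OA input, and myeloid markers (20 genes, 2 at 0) were 54.0 to 106 CPM in 4E heavy, 62.8 to 173 in 4E input, 119 to 247 in OA heavy and 117 to 158 in OA input. Erythroid markers (17 genes, 3 at 0) were 116 to 391 CPM in 4E heavy, 134 to 525 in 4E input, 234 to 1724 in OA heavy and 281 to 1342 in OA input. Their part in the results was not tested.

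Without pairing heavy and input libraries, none of the 7400 tested genes was called as changed in its polysome association between the arms, and with pairing 3 were, the ribosomal protein gene RPS3 among them. edgeR's quasi-likelihood test called 0 of 7400 genes (0%) at an adjusted p under 0.05, and the smallest adjusted p was 0.999. Heavy and input libraries of an arm share a sample name in the labels. With those 6 pairs as a block, edgeR called 2 genes higher in 4E (0.027%), the copies MTRNR2L6 and MTRNR2L7, and 1 lower (0.0135%), RPS3. Then 192 genes higher and 132 lower had an unadjusted p under 0.05. The calls with the block rest on 3 pairs per arm and on variance that edgeR shares across genes. Without the block, unadjusted p was under 0.05 for 152 genes (2.05% of those tested): 98 higher in 4E, which is 1.32% of all genes tested, and 54 lower in 4E, which is 0.73%. That is fewer than the 5% that an even spread of p-values would place there. DESeq2, without the block, called 0 genes with 150 at an unadjusted p under 0.05, and limma with voom called 0 with 102. The log2 values centred on 0, with 4019 above and 3381 below it, a median of 0.05 and quartiles of -0.29 and 0.40. Without OA replicate 1 in both fractions, 0 genes were called and 210 had an unadjusted p under 0.05, and without OA input replicate 1 alone these counts were 0 and 321.

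**Figure D1:**
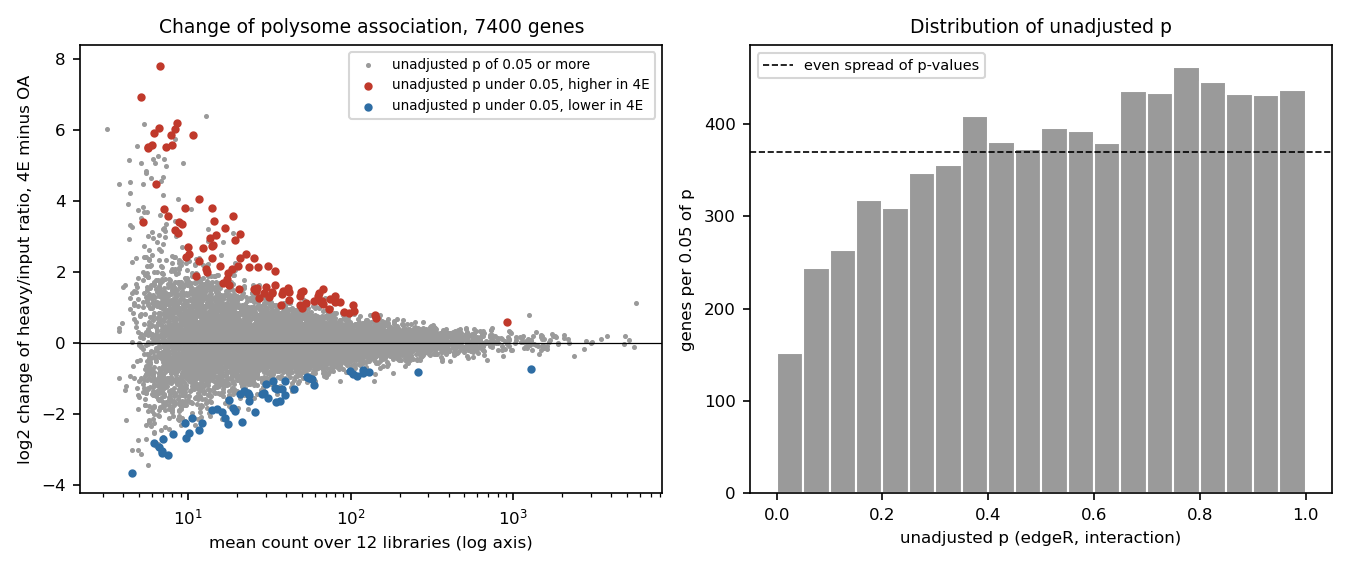
Left, the log2 change of the heavy-to-input ratio (4E minus OA) of each of the 7400 genes against its mean count over 12 libraries on a log axis, with the 98 and 54 genes of unadjusted p under 0.05 coloured by direction. Right, the number of genes in each 0.05 of unadjusted p, with a dashed line for an even spread. The scatter narrows as counts grow, and the leftmost bar, with 152 genes, is the lowest.

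The precision of these values depended on read counts, and for most mRNAs a 2-fold change lay within the interval of the fit without pairs. The standard error of the log2 change had a median of 0.63, and 1.07 among the 2560 genes with a mean count under 20, 0.64 in the 1947 genes from 20 to 50, 0.43 in the 2128 from 50 to 200 and 0.31 in the 765 genes at 200 or more. The 95% interval lay wholly within a log2 change of 1 either way, a 2-fold change, for 1214 genes (16.4%), whose median mean count was 195, against 25.8 in the other genes. It lay within 2 either way, a 4-fold change, for 4370 genes. A point estimate beyond 1 in either direction occurred in 34.7% of the genes with a mean count under 20 and in 1 of the 765 genes at 200 or more.

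Heavy polysome and input levels were close for most genes within each arm. The log2 difference of heavy minus input had quartiles of -0.27 and 0.38 in 4E and -0.22 and 0.24 in OA. Across all 7400 genes the difference in 4E and the difference in OA, which share no library, had a Spearman correlation of 0.14, and over the 765 genes with a mean count of 200 or more one of 0.58. Both are descriptions across genes, which are not independent replicates and share the depth of each library.

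edgeR called 8 genes lower in heavy than in input in 4E at an adjusted p under 0.05 (0.108% of 7400) and 5 in OA (0.0676%), and 0 higher in either arm. At an unadjusted p under 0.05, 350 genes differed between heavy and input in 4E and 108 in OA. With the pairs as a block, a setting added after the data were seen, 31 genes were called lower in heavy in 4E (0.419%) and 8 higher (0.108%), and 27 were called lower in OA (0.365%) and 6 higher (0.0811%), all of the unblocked calls among them. Both unblocked sets held MTRNR2L6 and MTRNR2L7, copies resembling mitochondrial ribosomal RNA whose reads the counting may have split. The other unblocked 4E calls were MTRNR2L1, the ribosomal proteins RPS3 and RPLP1, the HSP70 co-chaperone DNAJA1, the selenium carrier SEPP1 and the zinc finger gene ZNF485. The other unblocked OA calls were MTRNR2L5, MTRNR2L10 and the U1 variant RNVU1-8. Pairing called MTRNR2L1, RPS3, RPLP1, DNAJA1 and ZNF485 lower in heavy in OA too, and MTRNR2L5 and MTRNR2L10 lower in 4E too. SEPP1 was still called in 4E only, and RNVU1-8 in OA only. DNAJA1, which helps HSP70 fold proteins, was at 983, 1096 and 946 CPM in 4E heavy and 2519, 2970 and 2190 CPM in 4E input. The OA libraries held 782, 965 and 1171 CPM in heavy and 1156, 2526 and 2093 CPM in input. Heavy lay below input in both arms, except that OA input replicate 1 lay next to the OA heavy libraries. The log2 change between the arms was -0.36 (95% interval -1.06 to 0.33). With the pairs as a block that change was -0.41 (SE 0.16, unadjusted p = 0.0112, edgeR adjusted p = 0.998).

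SEPP1, which encodes selenoprotein P, was at 32.4, 16.9 and 17.3 CPM in 4E heavy and 100.4, 174 and 160.5 CPM in 4E input. Levels in OA were 51.8, 48.6 and 10 CPM in heavy and 64.7, 45 and 130.0 CPM in input. The 4E heavy values all lay below the 4E input values, and the OA fractions overlapped. Its heavy-minus-input difference was -2.68 in 4E and -1.04 in OA, and the change between the arms -1.63 (95% interval -3.08 to -0.19, unadjusted p = 0.0284, edgeR adjusted p = 0.999). With the pairs as a block the SEPP1 change was -1.65 (SE 0.51, unadjusted p = 0.00143, edgeR adjusted p = 0.969). Being called in 1 arm and not in the other does not by itself show a difference between the arms. Among genes called in 1 arm alone without the block, the unblocked test called none for that difference. With the block, RPS3 alone of them was called. RPLP1, a protein of the ribosomal stalk, had -1.52 in 4E and -0.95 in OA, and a change of -0.57 (95% interval -1.39 to 0.25).

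**Figure D2:**
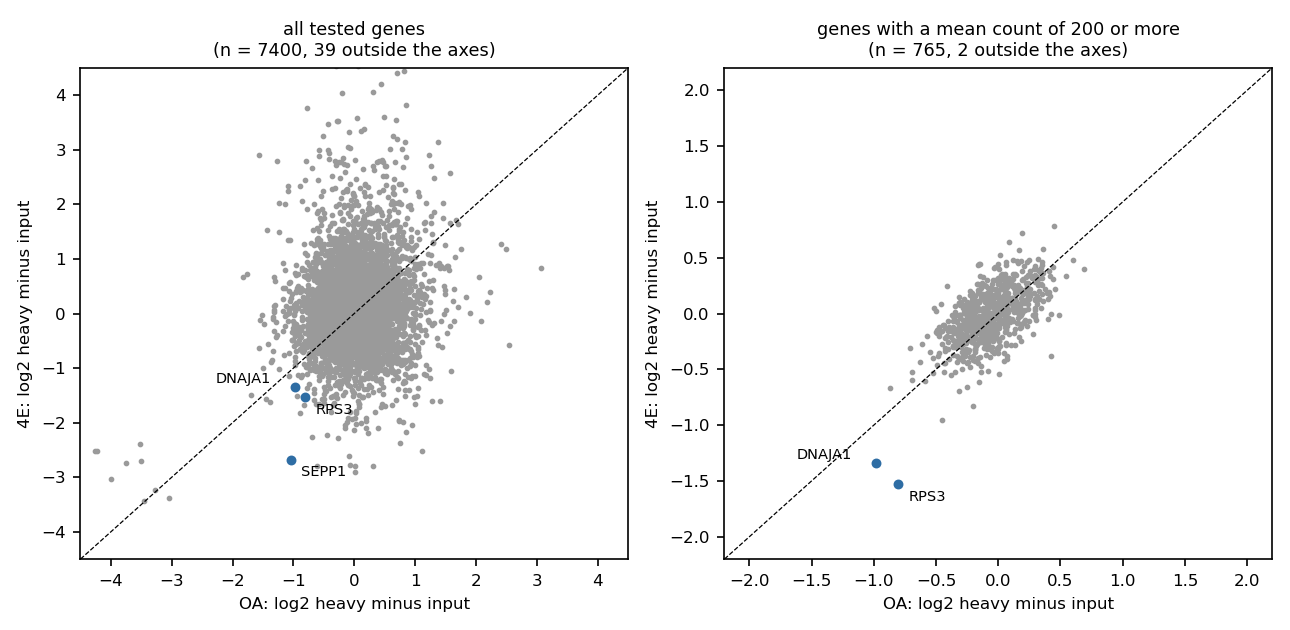
Log2 heavy minus input in 4E (vertical axis) against the same in OA (horizontal axis), for all 7400 genes on the left and for the 765 genes with a mean count of 200 or more on the right. The dashed line marks equal values, and RPS3, DNAJA1 and SEPP1, called lower in heavy in 4E, are in blue. The cloud on the left is round (Spearman 0.14), and the abundant genes on the right lie along the line (0.58).

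The genes of smallest p that were higher in 4E are named here as the lowest-p examples of an unblocked comparison that called none. Each has a mean count of 20 or more. UBA6, an enzyme that activates ubiquitin and FAT10, was at 52.8, 60.4 and 55.4 CPM in 4E heavy and 16.7, 22.3 and 17.3 CPM in 4E input. OA heavy had 40.7, 27.6 and 21.2 CPM and OA input 73.2, 38.6 and 16.7 CPM. All 4E heavy values lay above all OA heavy values, whereas the input values of the arms overlapped. The log2 change was 2.18 (SE 0.69, 95% interval 0.75 to 3.61, unadjusted p = 0.00467), and the 4E input values rest on 4 or 5 counts each. Without OA input replicate 1 the change was 1.42.

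PDXK, the kinase that makes the active form of vitamin B6, was at 43.2, 67.7 and 74.5 CPM in 4E heavy and 16.7, 8.92 and 17.3 CPM in 4E input. In OA it stood at 22.1, 24.3 and 36.2 CPM in heavy and 18.5, 38.6 and 33.3 CPM in input. Again the 4E heavy values were above the OA heavy values, and all 4E input values were below those of OA. Its change was 2.14 (SE 0.69, 95% interval 0.70 to 3.58), with 2 to 4 counts per 4E input library.

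DHX36, a helicase that unwinds G-quadruplexes in DNA and RNA, was at 161, 184 and 147 CPM in 4E heavy and 113, 98.1 and 91.1 CPM in 4E input. The OA libraries held 147, 99.5 and 129 CPM in heavy and 167, 177 and 143 CPM in input. Here the input libraries set the arms apart, with all 4E input values below all OA input values, while the lowest 4E heavy value equalled the highest OA heavy value within rounding. The change was 1.08 (SE 0.36, 95% interval 0.33 to 1.82).

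CPSF3, the endonuclease that cuts pre-mRNA at the poly(A) site, was at 99.5, 128 and 135 CPM in 4E heavy and 79.5, 75.8 and 69.4 CPM in 4E input. Levels in OA were 113, 73 and 111 CPM in heavy and 133, 171 and 113 CPM in input. The pattern was that of DHX36: heavy values overlapped and 4E input lay below OA input, for a change of 1.16 (SE 0.40, 95% interval 0.32 to 2.0).

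The other genes of this direction were METTL16, a methyltransferase of U6 and MAT2A RNA (2.41, SE 0.88), ANKRD10 (2.03, SE 0.67), the HSP90 co-chaperone SUGT1 (1.6, SE 0.60), PLAA, a ubiquitin-binding partner of the VCP segregase (1.53, SE 0.57), the autophagy protein WDR45B (1.46, SE 0.48) and the phospholipase PNPLA6 (1.32, SE 0.43). METTL16 had 3, 1 and 1 counts in the 4E input libraries, and ANKRD10 had 4, 3 and 3. In every one of the 10, the 3 heavy-minus-input differences of the 4E pairs lay above those of the 3 OA pairs, where pairs are libraries with the same replicate number. Such a complete separation upwards occurred in 464 of the 7400 genes (6.27%) and downwards in 327 (4.42%). As the 10 genes were picked by p from the same libraries, their separation largely follows from that choice and adds no support.

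Among the genes lower in 4E, the one with the most counts was RPS3. RPS3, a protein of the small ribosomal subunit, was at 1283, 1295 and 1583 CPM in 4E heavy and 3557, 3826 and 4623 CPM in 4E input. OA heavy had 1300, 1542 and 1631 CPM and OA input 1893, 2638 and 3296 CPM. The heavy libraries of the 2 arms overlapped, while all 4E input values lay above all OA input values. Its heavy-minus-input difference was -1.53 in 4E and -0.81 in OA, and the change between the arms -0.72 (SE 0.28, 95% interval -1.31 to -0.14, unadjusted p = 0.0181, edgeR adjusted p = 0.999). With the pairs as a block the change was -0.75 (SE 0.15, edgeR adjusted p = 0.00237). Under the other 21 alternatives the adjusted p of RPS3 was 0.943 or more. In the mouse annotation Rps3 holds the snoRNA genes Snord15a and Snord15b. Raw counts of SNORD15B were 37, 51 and 72 in 4E input, and 45, 46 and 48 in OA input. They were 2, 21 and 3 in 4E heavy, and 10, 12 and 17 in OA heavy. Raw counts of SNORD15A were 7, 13 and 6 in 4E input, and 6, 13 and 8 in OA input. They were 5, 0 and 0 in 4E heavy, and 4, 3 and 5 in OA heavy. These raw counts are not scaled to read depth, which differed between the groups. The part of snoRNA reads in the RPS3 values was not tested. How the authors' counting treated reads of such nested genes is not stated in the labels.

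IP6K1, a kinase that makes inositol pyrophosphates, was at 144, 144 and 128 CPM in 4E heavy and 205, 178 and 186 CPM in 4E input. In OA it stood at 164, 146 and 144 CPM in heavy and 113, 119 and 110.0 CPM in input. The heavy libraries overlapped and 4E input lay above OA input in every case, for a change of -0.86 (SE 0.32, 95% interval -1.53 to -0.19). COPZ1, a subunit of the COPI vesicle coat, was at 56.4, 85.8 and 72.7 CPM in 4E heavy and 176, 111 and 126 CPM in 4E input. The OA libraries held 79, 84 and 97.5 CPM in heavy and 79.4, 48.3 and 90 CPM in input. Input was again higher in each 4E library than in any OA library, and the change was -1.18 (SE 0.43, 95% interval -2.08 to -0.28).

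ZNF219, a zinc finger transcription factor, was at 20.4, 21.7 and 24.2 CPM in 4E heavy and 58.6, 49 and 34.7 CPM in 4E input. Levels in OA were 33.2, 76.3 and 42.5 CPM in heavy and 36.2, 16.1 and 26.7 CPM in input. Every 4E heavy value was below every OA heavy value, and the input values overlapped. The change was -1.94 (SE 0.64, 95% interval -3.27 to -0.62, unadjusted p = 0.00623). The OA input values of replicates 2 and 3 rest on 5 and 8 counts.

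The remaining genes of this direction were the S6 kinase RPS6KB2 (-1.63, SE 0.64), the mitochondrial fission receptor MIEF1 (-1.64, SE 0.68), ARHGAP12 (-1.41, SE 0.58), MPND (-1.4, SE 0.59), the methyl-lysine reader L3MBTL3 (-1.28, SE 0.48) and the calmodulin gene CALM3 (-0.93, SE 0.39). RPS6KB2 overlapped between the pairs of the arms, and the other 9 genes did not. These genes too were picked by p from the same libraries, so their separation adds no support.

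**Figure D3:**
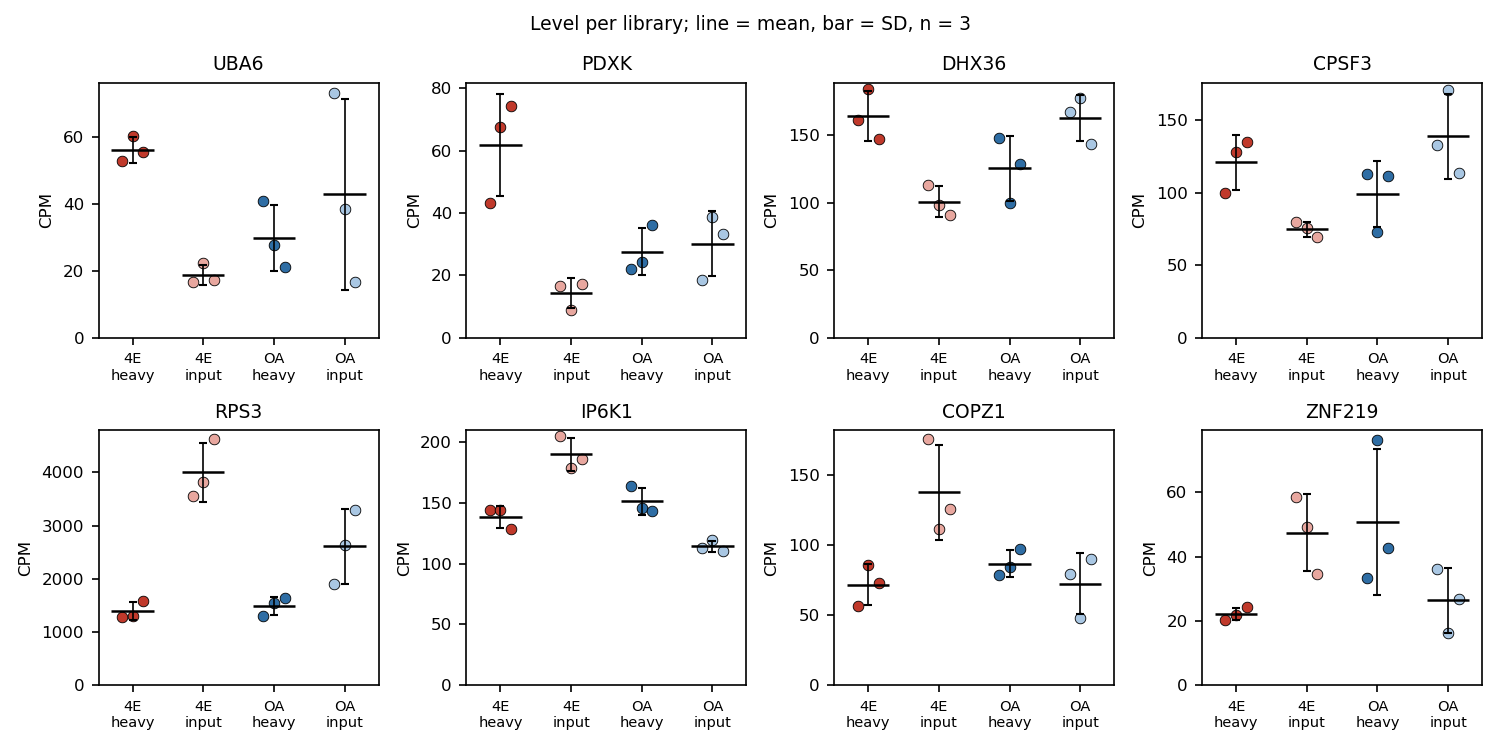
Level in CPM of 8 genes in each library, by group, with the mean as a line and the SD as a bar (n = 3). UBA6, PDXK, DHX36 and CPSF3 (top) had a higher heavy-to-input ratio in 4E, and RPS3, IP6K1, COPZ1 and ZNF219 (bottom) a lower one. None passed the adjusted threshold without the block, and RPS3 passed it with heavy and input libraries paired.

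By median, the genes at an unadjusted p under 0.05 differed between the arms more in input than in heavy. Of the 98 genes higher in 4E at an unadjusted p under 0.05, 52 (53.1%) had fewer than 10 counts in the 3 4E input libraries together and 13 had none, against 1389 of all 7400 genes (18.8%) with fewer than 10. Their median log2 difference of 4E minus OA was 0.23 in heavy and -1.65 in input. For the 54 genes lower in 4E, 3 of which had fewer than 10 counts in 4E input, these medians were -0.70 in heavy and 0.91 in input. The 4E input libraries are the shallowest of the series. The genes were picked on the heavy difference less the input difference in these same libraries. How far each fraction differs is thus in part fixed by that choice, and the medians are a description only.

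Subunits of eIF4F and the proteins that regulate it were the first group of interest. EIF4E itself, with 49 counts over all libraries, and its inhibitor EIF4EBP1, with 21, had too few to be tested. The eIF4E-binding protein EIF4EBP3, with 3 counts, was not tested either. The helicase gene EIF4A1 had 0 counts in all libraries, so EIF4A2 is the only eIF4A helicase of the list with counts. Why EIF4A1 had none was not tested. Of the 19 of 23 listed genes that were tested, 0 were called, 0 had an unadjusted p under 0.05, and 11 values were above and 8 below 0, with a median of 0.12 beside 0.05 for all genes. The median was -0.20 without OA input replicate 1. EIF4G1, the partner that eIF4E holds, was at 853, 746 and 655 CPM in 4E heavy and 820.3, 825 and 785 CPM in 4E input. OA heavy had 853, 862 and 822 CPM and OA input 866, 782 and 759.8 CPM. All 12 values lay between 655 and 866 CPM, and the log2 change was -0.18 (SE 0.25, 95% interval -0.70 to 0.33).

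PABPC1, the poly(A)-binding protein that eIF4G contacts, averaged 1250 ± 218 CPM in 4E heavy and 1385 ± 212 in 4E input, against 1532 ± 175 in OA heavy and 1974 ± 231 in OA input (SD, n = 3). Its change was 0.22 (95% interval -0.33 to 0.77). The interval stayed within a 2-fold change either way for 10 of the 19 genes. Besides EIF4G1 and PABPC1 these were the scaffold EIF4G3 (0.12), the helicase EIF4A2 (0.13) and its cofactor EIF4B (-0.16), the eIF4A inhibitor PDCD4 (0.02), the eIF4E kinase MKNK2 (0.26), the second poly(A)-binding protein PABPC4 (0.14) with its inhibitor PAIP2 (-0.10), and CYFIP2 (-0.09), a relative of the eIF4E-binding CYFIP1. The other 9 had wider intervals in this fit, which leaves the pairs out. With the pairs as a block, these 9 had SEs from 0.16 (EIF4G2) and 0.36 (EIF4E2) up to 0.89 (EIF4E3). They were the eIF4E relatives EIF4E2 (-0.11) and EIF4E3 (0.16), the eIF4E-binding proteins EIF4EBP2 (0.41), EIF4ENIF1 (-0.28) and CYFIP1 (0.56), the helicase cofactor EIF4H (-0.69), the eIF4G relative EIF4G2 (0.12), the eIF4E kinase MKNK1 (-0.10) and PAIP1 (0.25).

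No mRNA known for its dependence on eIF4E was called. Of 24 tested genes of 32 listed, 0 were called and 0 had an unadjusted p under 0.05, 10 lay above 0 and 14 below, and the median was -0.06. The median was -0.20 to 0.01 over all alternatives. The 3 of smallest p were the apoptosis inhibitor XIAP (0.96, 95% interval -0.49 to 2.42), BCL2 (-0.51, -1.31 to 0.28) and MCL1 (0.52, -0.30 to 1.35), which block the mitochondrial route to cell death. MCL1, whose protein is short-lived, was at 271, 251 and 338 CPM in 4E heavy and 193, 125 and 204 CPM in 4E input. In OA it stood at 388, 269.8 and 221 CPM in heavy and 351, 209 and 197 CPM in input. The groups overlapped in both fractions. Without OA input replicate 1 the MCL1 value was 0.16, without 4E input replicate 1 that of XIAP was 2.01, and without OA heavy replicate 3 that of BCL2 was -0.29. The interval stayed within a 2-fold change for 8 of the 24 genes, among them the polyamine enzyme ODC1 (0.14, -0.38 to 0.65), the kinase PIM1 (0.06, -0.43 to 0.55), the NF-kB inhibitor NFKBIA (0.03, -0.43 to 0.48) and the cyclins CCND2 (-0.09, -0.74 to 0.57) and CCND3 (0.08, -0.64 to 0.80). MYC was measured at -0.31 (-1.26 to 0.64), so that a 2-fold lower association is within its interval. These 5 and MYC were singled out after their values were seen.

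**Figure D4:**
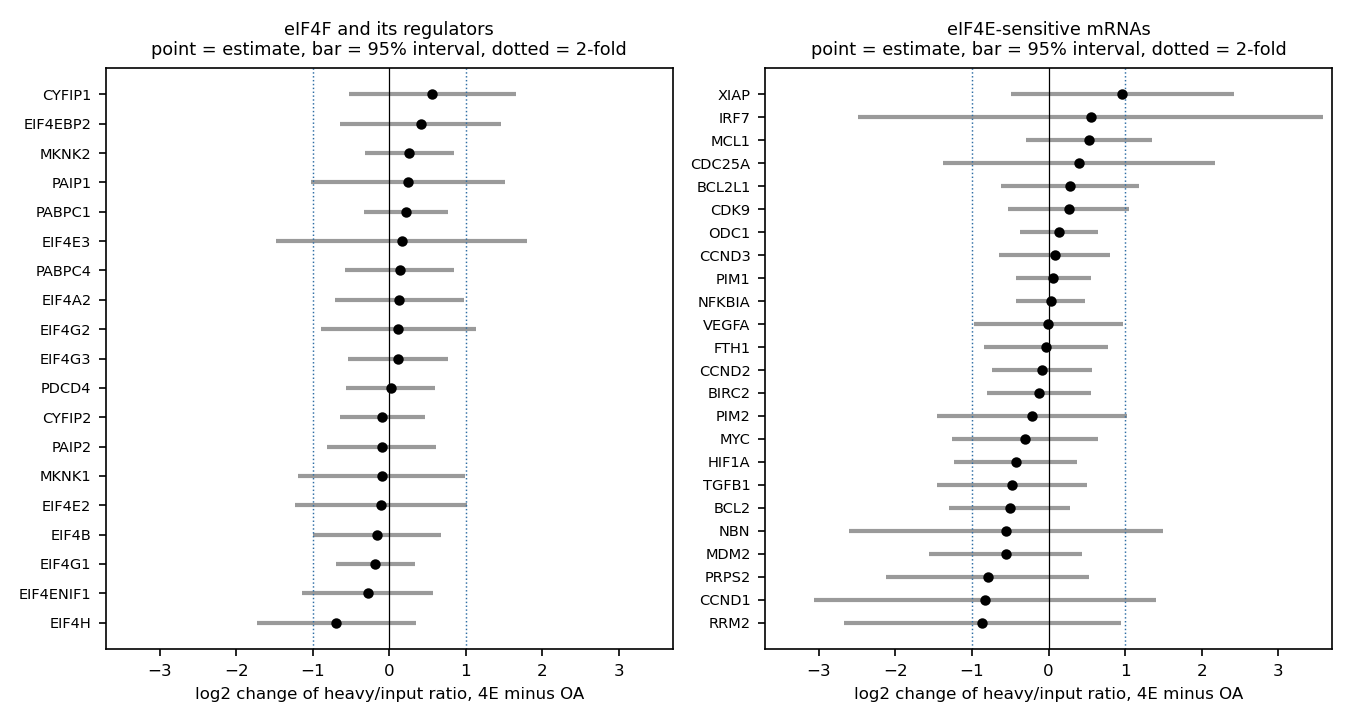
Log2 change of the heavy-to-input ratio, 4E minus OA, with its 95% interval, for the 19 tested genes of eIF4F and its regulators (left) and the 24 tested eIF4E-sensitive mRNAs (right). Intervals come from the fit without pairs, and dotted lines mark a 2-fold change. The intervals in both panels include 0, and 10 and 8 of them lie between the dotted lines.

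Values of ribosomal protein mRNAs were divided evenly about 0. Of 57 tested genes of 82 listed, 0 were called, 29 lay above and 28 below 0, the median was 0.04, and it ran from -0.54 to 0.29 over the alternatives. Unadjusted p was under 0.05 for RPL7A and RPS20, higher in 4E, and for RPS3, lower. RPL7A had 0 counts in each 4E input library, against 29, 2 and 1 in OA input, and 13, 14 and 3 in 4E heavy, against 45, 13 and 9 in OA heavy, so no fold is given for it. RPS20 had 2 to 4 counts per 4E input library, and its value of 2.51 was 1.44 without OA input replicate 2. The other 5′ TOP mRNAs, of translation factors and a few other genes, had 14 of 27 tested values above 0 and 13 below, 0 called, 0 higher and 2 lower at an unadjusted p under 0.05, and a median of 0.01. EEF1B2, a subunit that recharges elongation factor 1 with GTP, was at 8.39, 13.3 and 6.93 CPM in 4E heavy and 50.2, 40.1 and 21.7 CPM in 4E input. The OA libraries held 35.7, 35.4 and 25 CPM in heavy and 33.1, 16.1 and 50 CPM in input. The 4E heavy values lay below all others and the input values overlapped, for a change of -1.89 (SE 0.73, 95% interval -3.43 to -0.36). The second was EIF3M (-0.80, SE 0.37), a subunit of eIF3, and the third of smallest p in this list was the elongation factor EEF1A1 (0.99, SE 0.59, and 0.48 to 1.53 with 1 library left out).

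A 5′ TOP start begins with C and goes on with at least 4 pyrimidines. Taken strictly at RefSeq's annotated start (GRCm38.p6), 2.51% of all 32851 promoter windows have one. The test is a weak marker of the class, as it found the run in 10 of 41 matched ribosomal protein genes and 3 of 19 matched genes of the other 5′ TOP list. To show what it reads, the 4 most counted of these are printed from 10 bases before to 20 after the annotated start, with the pyrimidine run from that start in capitals.
RPLP2: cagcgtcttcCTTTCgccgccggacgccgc
RPS6: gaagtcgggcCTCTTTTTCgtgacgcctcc
FAU: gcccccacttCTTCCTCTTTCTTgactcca
RPL28: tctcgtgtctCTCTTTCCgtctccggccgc
They lie at chr7:141447641-141447670 (plus strand), chr4:86857348-86857377 (minus), chr19:6057937-6057966 (plus) and chr7:4792955-4792984 (plus). The log2 changes of these mRNAs were 0.09 (-0.51 to 0.70) for the stalk protein RPLP2, 0.29 (-0.59 to 1.18) for RPS6, the target of S6 kinases, -0.02 (-0.79 to 0.75) for FAU, a fusion of a ubiquitin-like protein with a ribosomal protein, and 0.32 (-0.35 to 0.98) for RPL28. All 4 intervals include 0. Over all tested genes, 166 with such a start had a median of 0.09, and 5319 without one 0.05.

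Neither protein length nor base composition at the start separated the genes. In 4 bins of equal size, from the shortest to the longest proteins of 6796 genes (37 to 33467 codons), the median log2 change was 0.06, 0.03, 0.05 and 0.04, and Spearman's correlation over genes was 0.01. In 4 such bins from low to high GC share of the 50 bases after the annotated start (20% to 94%, 5485 genes), it was 0.07, 0.05, 0.04 and 0.05, with a correlation of -0.01. Genes that hold an annotated snoRNA gene, a feature added after the values were seen, had a median of 0.06 (166 of 6800 matched genes), against 0.04 in the others, and 6 of them (3.61%) had an unadjusted p under 0.05, against 132 (1.99%). Besides RPS3, the genes CPSF3, EEF1B2, RPS20 and RPL7A and the eIF4 genes EIF4A2, EIF4G1 and EIF4G2 hold snoRNA genes, as does PABPC4, and the part of snoRNA reads in their values was not tested.

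Other parts of the translation apparatus were as evenly divided. Initiation factors outside eIF4 had 16 tested values above 0 and 21 below (median -0.04), with EIF2B3 (2.1, SE 0.95) and EIF2B5 (-0.96, SE 0.52), both subunits of the exchange factor eIF2B, pointing opposite ways. Elongation and termination factors had 9 above and 10 below (median -0.03). EEF2K, an inhibitory kinase of elongation factor 2, had a value of 2.9 (SE 1.10) that rests on 0, 1 and 1 counts in 4E input. Aminoacyl-tRNA synthetases had 10 above and 11 below (median -0.05). Genes of the mTOR pathway had 16 above and 16 below (median -0.00), with RRAGA, a Rag GTPase that brings mTORC1 to the lysosome, at 1.24 (SE 0.51) and its activator RHEB, at 4.92 counts on average, at -3.0 (SE 1.68). Without 4E input replicate 1 the RHEB value was 2.93. No gene of these 4 lists was called.

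No T cell gene of the lists that follow was called. The T follicular helper list, the programme of the T cells that help B cells in germinal centres, had 10 of 17 tested values above 0 and 7 below (median 0.07), 0 called and 0 at an unadjusted p under 0.05. Its 3 of smallest p were the inhibitor of E proteins ID3 (-0.81, SE 0.50), the CD30 ligand TNFSF8 (1.28, SE 0.80) and the cytokine receptor chain IL6ST (1.43, SE 1.09). The IL6ST value was 0.52 without OA input replicate 1, 0.61 without 4E heavy replicate 1 and 2.76 without OA heavy replicate 1, and that of ID3 was -1.24 without OA replicate 1 in both fractions. PDCD1, ICOS and IL21, with 9, 20 and 7 counts over all libraries, could not be tested. T cell receptor signalling had 27 of 41 values above 0 and 14 below (median 0.10), with the NF-kB subunit NFKB1 at 0.60 (SE 0.31) and the receptor chain CD3G, which had 0 counts in OA input replicate 2, at -2.2 (SE 0.95). The CD3G value was -3.97 without OA input replicate 1, and that of NFKB1 was 0.39 without 4E input replicate 2. CD4 had 0 counts in all 4E input libraries and in OA input replicate 2, so no change can be given. Naive and memory T cell genes had a median of -0.05 (21 tested) and T helper lineage factors one of -0.02 (13 tested).

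Regulatory T cell genes had 4 of 11 values above 0 and 7 below, with a median of -0.46 that was -0.64 to -0.17 over the alternatives. CTLA4, the inhibitory receptor of these cells, was at 77.9, 36.2 and 45 CPM in 4E heavy and 113, 84.7 and 65.1 CPM in 4E input. Levels in OA were 147, 67.4 and 120.0 CPM in heavy and 144, 74 and 76.7 CPM in input. The groups overlapped in both fractions, and the change was -0.85 (SE 0.54, 95% interval -1.98 to 0.28), or -1.31 without OA input replicate 1. The gelsolin relative CAPG had -0.85 (SE 0.73, and -1.48 to -0.36 with 1 library left out), and NT5E, the ectonucleotidase CD73, 1.53 (SE 0.65, unadjusted p = 0.0292). In mean log2 level over the list, the change was -0.16 and the spread between replicates 0.70, where the spread is the square root of the summed variances of the 4 groups.

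Metabolic and proliferation genes were as follows. Glycolysis had 6 of 21 values above 0 and 15 below (median -0.28, and -0.40 to -0.12 over the alternatives), and cholesterol synthesis 5 of 19 above and 14 below (median -0.39, and -0.46 to -0.16). In mean level both lists changed by -0.29, with replicate spreads of 0.39 and 0.35. No gene of either had an unadjusted p under 0.05. PFKFB3, which makes the activator of phosphofructokinase, had -0.77 (SE 0.44). The CCT chaperonin, which folds actin and tubulin, had 9 of 13 above and 4 below (median 0.38, mean level 0.18, spread 0.36), with its subunit CCT6A at 0.91 (SE 0.43, unadjusted p = 0.0453) and CCT2 at 0.31 (SE 0.27). DNA replication genes had 21 of 33 above and 12 below (median 0.19) and mitosis genes 13 of 28 above and 15 below (median -0.03). KIF23, a kinesin of cytokinesis, had 2.69 (SE 1.16) with 0, 0 and 2 counts in 4E input, and 6.90 without the third of these. Over the whole set of 39 lists, 0 of 835 different tested genes were called and 23 (2.75%) had an unadjusted p under 0.05, against 2.05% of all 7400 genes. With the pairs as a block, RPS3 alone among them was called.

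The long noncoding RNAs were the 1 list of 39 whose mean level changed by more than the spread between replicates. The change was -0.83 and the spread 0.60, over 5 tested genes of 34 listed. With the spread taken over the heavy-minus-input differences of the pairs, 4 of the 39 lists passed it. These were the long noncoding RNAs (-0.83, spread 0.70), myeloid markers (-0.81, 0.77), glycolysis (-0.29, 0.23) and chromatin regulators (0.10, 0.035). In glycolysis and chromatin regulators, 2 of the 39 lists, the pairs of the arms did not overlap. The mean heavy-minus-input difference of chromatin regulators was 0.019, 0.015 and 0.021 in 4E and -0.061, -0.125 and -0.066 in OA. Of their 56 tested genes 33 lay above 0 and 23 below (median 0.07), and 0 were called. The mean log2 level of the long noncoding RNAs was 6.57 ± 0.23 in 4E heavy and 7.42 ± 0.26 in 4E input, against 6.82 ± 0.25 in OA heavy and 6.83 ± 0.43 in OA input (SD, n = 3). No member was called, and 0 had an unadjusted p under 0.05, or 2, NEAT1 and XIST, with the pairs as a block. XIST, which coats the inactive X chromosome, was at 148, 173 and 242 CPM in 4E heavy and 389, 566 and 846 CPM in 4E input. OA heavy had 65.4, 147 and 276 CPM and OA input 127, 315 and 437 CPM. Within each arm heavy was mostly lower than input, and the 2 arms overlapped in both fractions. Its change was -0.85 (SE 0.61, 95% interval -2.14 to 0.43). It was -0.52 without 4E input replicate 3, -0.47 without OA input replicate 1 and -0.24 without OA heavy replicate 3, and -0.75 (SE 0.24, edgeR adjusted p = 0.998) with the pairs as a block. NEAT1, the scaffold of nuclear paraspeckles, had -2.12 (SE 1.09), with 0 counts in OA input replicate 2, and TUG1 had -0.59 (SE 0.44, or -0.29 without 4E input replicate 3 and -0.38 without OA input replicate 2). MALAT1, the abundant nuclear speckle RNA, had -0.02 (SE 0.26, 95% interval -0.56 to 0.53), and KCNQ1OT1 0.73 (SE 1.05). The list's median of -0.59 was -0.77 to -0.18 over the alternatives.

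Among markers of other cell types, which a sort for CD4+ T cells would leave out, the myeloid list stood lowest. Its 4 tested genes of 23 listed lay below 0, with a median of -0.80, 0 called and 1, the myeloid transcription factor SPI1 (-2.70, SE 1.25), at an unadjusted p under 0.05. The other values were -0.81 for the neutrophil enzyme MPO, -0.17 for the macrophage growth factor receptor CSF1R and -0.79 for CYBB, a subunit of the phagocyte oxidase. The summed level of all myeloid markers did not overlap between 4E heavy and OA heavy, and overlapped in input. Stromal and endothelial markers did not overlap between the arms in either fraction. CD8 T and NK cell markers did not overlap in heavy (25.4 to 31.2 CPM in 4E, 34.3 to 38.7 in OA). Summed levels of the other listed cell types overlapped in heavy. These are levels within a fraction and not changes of the heavy-to-input ratio.

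**Figure D5:**
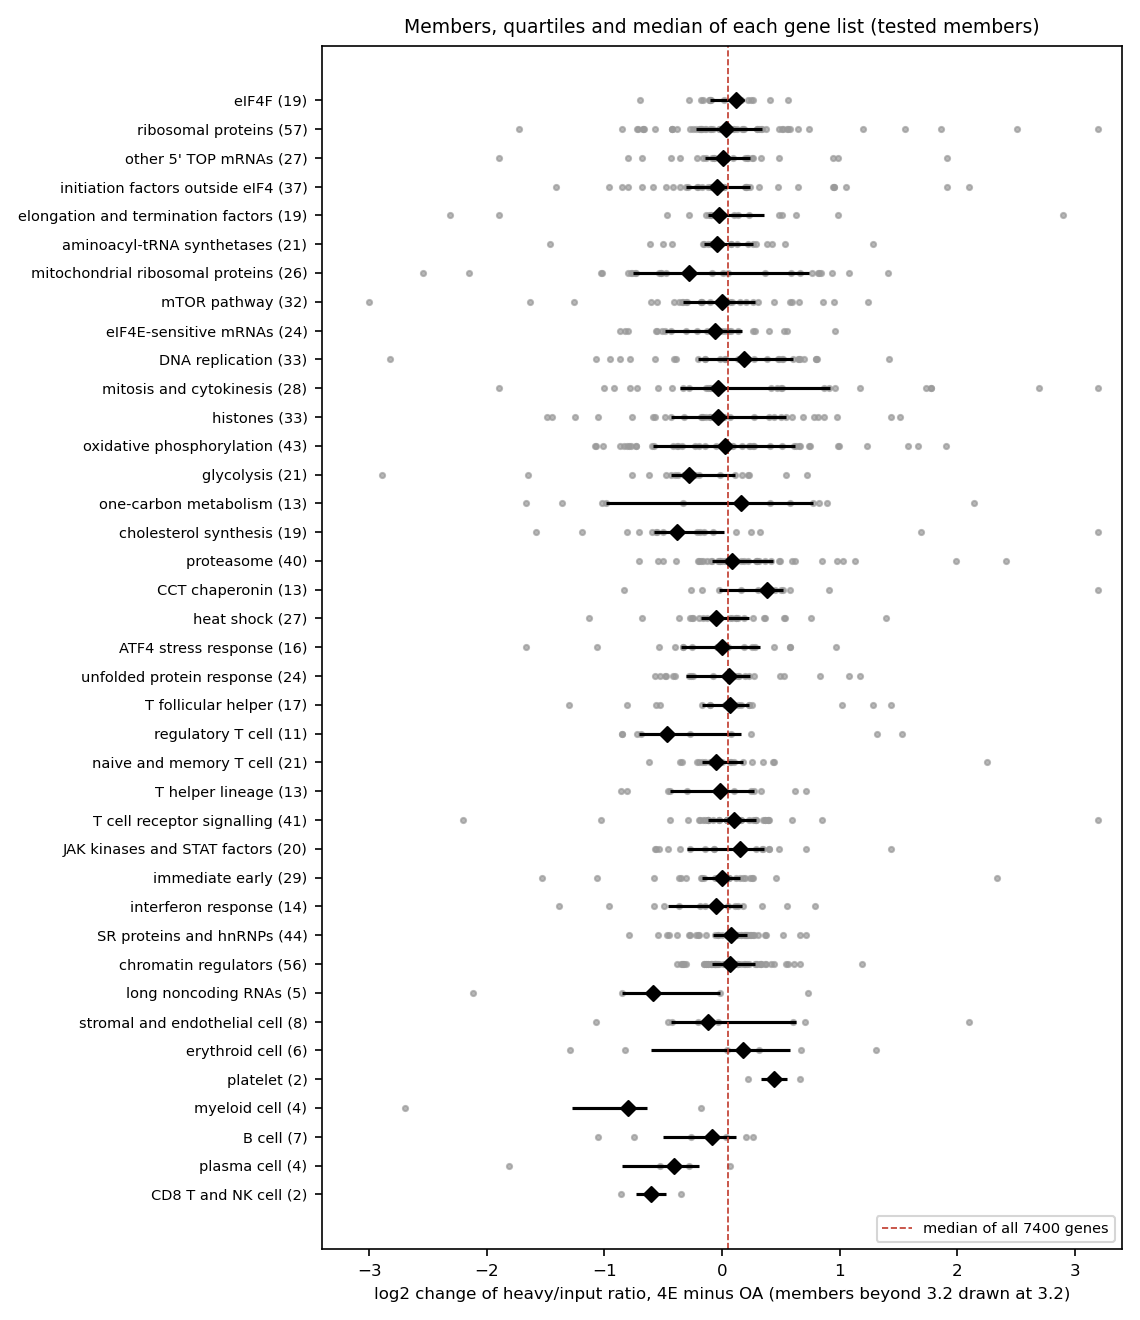
Log2 change of the heavy-to-input ratio, 4E minus OA, for the tested members (grey points), quartiles (bars) and median (diamonds) of each gene list, with the number of tested members in brackets and the lists of other cell types at the bottom. The dashed line is the median of all 7400 genes, 0.05. Medians of the lists with at least 10 tested members run from -0.46 to 0.38, and the 4 tested myeloid genes have a median of -0.80.

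The authors' deposited table sorts genes into classes by a different route, setting the change in polysome RNA beside the change in total RNA with unadjusted p under 0.05 and more than 2-fold change required. Of its classes, translation alone holds 667 genes, transcription alone 641, both together 64, opposite 19 and none 9837. For polysome RNA, 10 genes have an adjusted p under 0.05 in the authors' deposited table, and for total RNA 0. Its signs match 4E minus OA here in 96.9% of 641 classed and tested genes for polysome RNA. Only 175 of the 667 translation-alone genes in the authors' deposited table passed the filter on low counts. Among them 37 were higher in polysome RNA there, with a median change of association of 1.01 here and 1 at an unadjusted p under 0.05, and 138 were lower, with a median of -1.10 and 11 at an unadjusted p under 0.05. Of the 422 tested transcription-alone genes of the authors' deposited table, the 138 higher in polysome RNA there had a median of -0.44 here, with 41 at an unadjusted p under 0.05, and the 284 lower had a median of 1.02, with 37. These classes were made from the same libraries, so their medians describe how the classes were made and support nothing, and without the block none of their genes passed the adjusted test of the difference between the fractions.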

How the data were processed

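Libraries of total RNA (input) and heavy polysome RNA were made with poly(A) selection and a stranded preparation, per the labels' protocols. The authors deposited whole-number read counts per gene symbol. The submitters' processing notes name Bowtie and mm9 without a version or a role. How reads were counted, and with which annotation, is not stated in the labels. Despite the word normalised in the file's name, the values are whole and their totals differ, so they were treated as raw counts. Symbols are human in style (524 rows have forms such as C1orf names), 6817 of 7400 tested ones match a mouse symbol when case is ignored, and 15 tested date-like or repeated rows are not named. A further table that the authors deposited holds their own log2 fold changes and p-values per gene, with classes. Columns were matched to libraries by name, and 0 columns of other samples were present. Reads in no gene or ambiguous, 16.4% to 31.4% per library, were left out.

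Rows whose symbols begin with SNOR, SCARNA, RNU, RN7S, RMRP, RPPH1 or VTRNA were removed, genes reaching 10 counts in 3 or more libraries were kept, and TMM factors were 0.955 to 1.08. The interaction was tested with edgeR 4.0.16 (R 4.3.3; quasi-likelihood, 1 fit of 4 group means over 12 libraries, Benjamini-Hochberg adjustment, threshold 0.05). Standard errors and 95% intervals come from that fit. Levels are CPM after scaling. Pairs used log2(CPM + 1). Heavy and input libraries of an arm share a sample name in the labels (OA1 and OA1-total), so they were taken as pairs, and values with these pairs as a block are given where a call or count changed. Deviations from the group means correlated within pairs at 0.095, 0.016 and 0.041 in 4E and 0.665, 0.140 and 0.297 in OA, and 5 of 6 input libraries correlated best with their own pair. Alternatives used limma 3.58.1 (voom) and DESeq2 1.42.0, other scalings and filters, replicate blocks and left-out libraries. The method without the block was tested on simulated counts of 12 libraries, with changes placed in 4E heavy. It called 7 of 50 genes changed by a log2 of -1.5 and 16 of 50 at 1.5. At -3 it called 28 of 50 and at 3 it called 37 of 50, with 4 false calls among 7400 genes. Many changes of such sizes would thus be missed. No set test was run on the gene lists.

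Named genes were the 10 of smallest unadjusted p in each direction with a mean count of at least 20, the 3 of smallest p in a list, and all tested eIF4F genes, since none was called; 1 gene is not reported here. The genes and lists were chosen with earlier results of these data known. Protein lengths are from GENCODE vM21 coding sequences, in place of a protein table. No genome of the files' build was at hand, so RefSeq sequences are given on GRCm38.p6.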

Additional observations from a re-analysis of the deposited data

How the results depend on the processing

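With no filter on low counts, 13767 genes were tested and 1 was called higher in 4E (MTRNR2L6) and 1 lower (RNA18S5, with 6 counts in 4E input replicate 1, 267 and 434 in OA heavy replicates 2 and 3, and 0 elsewhere). With a replicate block by arm and number, which pairs heavy and input of 1 sample name, 2 genes were called higher in 4E (MTRNR2L6 and MTRNR2L7) and 1 lower, RPS3 (log2 change -0.75, adjusted p = 0.00237). Under the other 20 alternatives, DESeq2, limma with voom, other scalings, a filter of 50 counts, a block by number and left-out libraries among them, 0 genes were called in either direction. Unadjusted p was under 0.05 for 54 genes with a filter of 50 counts and 362 with no filter, and for 93 to 321 when 1 library was left out. With the same block, added here after the data were seen, the count lower in heavy than in input was 31 in 4E and 27 in OA, and the count higher was 8 in 4E and 6 in OA. Of 79 genes with alternatives, 42 moved by over 1.5 times or changed sign in at least 1 of them. Values near 0 changed sign. EIF4A2 was at -0.21, EIF4E3 at -0.057, MKNK1 at 0.033, PABPC4 at -0.022 and PDCD4 at -0.062 without OA replicate 1 in both fractions. PDCD4 was at -0.000356 without composition factors, -0.00263 with DESeq2 size factors, -0.000593 with DESeq2 and -0.00884 with a filter of 50 counts. With 1 library left out in turn, the genes that changed sign ran from -3.57 to 2.93 for RHEB, -0.21 to 0.03045 for CYFIP2, -0.39 to 0.37 for EIF4A2, -0.32 to 0.028 for EIF4B, -0.41 to 0.27 for EIF4E2, -0.34 to 0.45 for EIF4E3, -0.50 to 0.12 for EIF4ENIF1, -0.46 to 0.61 for EIF4G2. Further ranges were -0.044 to 0.30 for EIF4G3, -0.48 to 0.23 for MKNK1, -0.092 to 0.31 for PABPC4, -0.08004 to 0.55 for PAIP1, -0.25 to 0.11 for PAIP2, -0.12 to 0.13 for PDCD4. The causes were not tested.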
